A study of Arabidopsis thaliana with 12 samples.

Results

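Leaves of wild-type Col-0, the reference accession of *Arabidopsis thaliana*, were compared between long days (LD) and continuous low light (CLL). The comparison uses 6 of the 12 libraries of the series, chosen by their genotype and light labels alone, namely the LD libraries 47, 48 and 49 and the CLL libraries 65, 66 and 67, and it covers the 27575 genes with reads in at least 1 of them. All plants were 4 weeks old and carried no transgene or mutation, and each library pools mature leaves of several plants. LD plants had 16 h of light at about 80 µmol of photons per square metre and second and 8 h of dark each day, and CLL plants had unbroken light at about 50 of the same unit. The sample labels give the day in that order, while a note on growth in the same record gives the hours the other way round. The paper states a lower intensity for CLL than this record and, for LD, a range that starts at 80. The regimes therefore differ both in the presence of a night and in the intensity of the light, and these cannot be told apart here. The hour of harvest is not given in the sources used here. The other 6 libraries are from the mutant *rtnlb16-1* under the same regimes and entered only the tests of a difference between the genotypes and the alternative fits of 4 groups or 12 libraries.

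Values are normalized counts, which are reads per gene divided by a size factor for each library. The LD libraries hold 25996093 to 30621662 assigned reads and the CLL libraries 29757789 to 44747661. The 50 most abundant genes took 29.7% to 36.5% of the counts under LD and 18.3% to 20.7% under CLL, so the scaling of the libraries matters. With scaling to the total count, chosen after seeing the data, the median over all genes moved by -0.43 on the log2 scale. A change is called LD against CLL, so that "higher" means higher under LD, and all log2 values are of the normalized count plus 1, which understates the change of genes with few reads. With limma, 1529 genes (5.54% of those tested) differed by more than 1 on the log2 scale at an adjusted p under 0.01, of which 573 were higher and 956 lower. The list counts below use the adjusted p alone, at which 600 of all genes (2.18%) were higher and 964 (3.5%) lower, with a median log2 fold change of -0.14 over all genes. With total-count scaling the same counts over all genes were 240 higher and 3259 lower, with a median of -0.57. List values with that scaling are to be read against these. Levels of one gene in bulk leaves cannot show whether fewer cells carried a transcript or each cell had less of it.

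The number of calls moved with each CLL library. Without library 65, the deepest, limma called 0 genes (5644 had an unadjusted p under 0.05), and edgeR on the recovered reads called 1210, of which 1051 were among the 1529. With library 65 left out of a fit of all 4 groups of the series, limma called 686. The edgeR and 4-group fits without a library were chosen after seeing the data. Without library 67 limma called 573 genes and without library 66 it called 820, or 786 and 1193 in the fit of 4 groups. Of the 573, 199 were higher and 374 lower, and of the 820, 237 were higher and 583 lower. List counts without these libraries are to be read against these. Library 66 lay more than 3-fold below both other CLL libraries in 57 of the 956 genes that were lower under LD, against 5 for library 65 and 10 for library 67, and in 68 of the 16394 genes with a mean of at least 50. The LD libraries 47, 48 and 49 lay as far below both others of their group in 45, 33 and 24 of the 956, and library 49 lay more than 3-fold above both in 57. Results that lose their call without 1 of the libraries 47, 48, 49, 66 or 67 are given below with that adjusted p, and a gene is also listed where edgeR without library 65 does not call it. Losses in the 4-group limma fit without library 65 are not listed below. Genes lost there alone included *CER4* (limma adjusted p = 0.066), *DLO1* (0.027), *PBS3* (0.022), *SAG13* (0.017), *PRR9* (0.017), *IAA29* (0.014) and *PR1* (0.014). Of the 154 genes named by rule and called, 67 remained in all 6 of these limma fits.

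**Figure D1:**
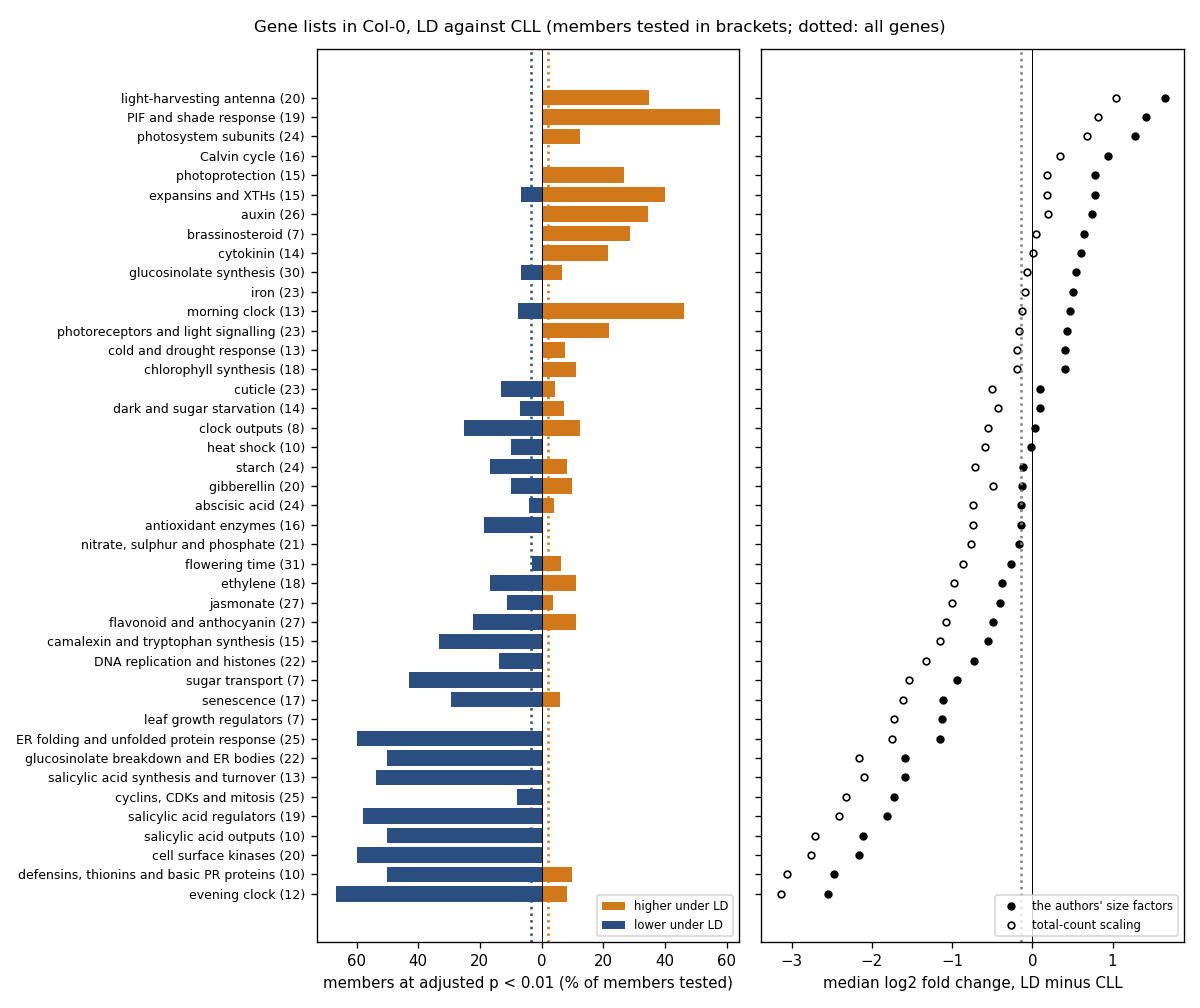
Gene lists in Col-0, ordered by their median. Left, bars give the percentage of each list's tested members that limma called higher (orange) or lower (blue) under LD, and dotted lines give the same over all genes (2.18% and 3.5%); right, points give the median log2 fold change of each list with the authors' size factors (filled) and with total-count scaling (open), and the dotted line marks the median of all genes (-0.14). The light-harvesting antenna has the highest median (1.65) and the evening clock the lowest (-2.54), and total-count scaling shifts every list to the left.

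The plant clock is a loop of repressors. CCA1 and LHY act in the morning, the pseudo-response regulators PRR9, PRR7, PRR5 and TOC1 follow through the day, and ELF3, ELF4 and LUX form the evening complex. Light also sets growth through the phytochromes and the PIF transcription factors, which drive auxin synthesis and cell wall loosening. Salicylic acid and its marker genes *PR1*, *PR2* and *PR5* stand for defence against biotrophic pathogens.

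Most genes of the evening clock were lower under LD and many of the morning clock higher. Of 12 genes of the evening clock tested, 8 fell and 1 rose under LD, with a median log2 fold change of -2.54 (-3.14 with total-count scaling). Of 13 morning genes, 6 rose and 1 fell, with a median of 0.47. With total-count scaling the median was -0.13, against -0.57 over all genes, and 3 rose and 3 fell. Over all genes that scaling gave 240 rises and 3259 falls. The morning count was 2 without library 66, and 7 of the evening falls remained without any of the libraries 47, 48, 49, 66 and 67. The hour of harvest relative to dawn under LD and the phase of the rhythm under CLL are both unknown, so that an effect of the regime and an effect of phase cannot be told apart.

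*PRR3*, which stabilises TOC1, had the largest fall of the clock genes. Its normalized counts were 0, 1.76 and 2.74 under LD and 106, 189 and 132 under CLL, and its ratio of CLL to LD was 90.9 (95% counting interval 30.9 to 442), with 3 reads in the LD group. *FKF1*, a blue-light receptor of the flowering pathway, stood at 4.29, 5.28 and 2.74 under LD and 111, 262 and 126 under CLL and fell by 4.96 ± 0.52 (SE) on the log2 scale (limma adjusted p = 4.1e-05). In both genes every CLL library lay far above every LD library. The evening complex gene *ELF4* had 15.7, 21.1 and 34.3 under LD and 348, 710.4 and 457 under CLL and fell by 4.36 ± 0.40 (limma adjusted p = 1.7e-05), and its partner *ELF3* had 84.4, 79.2 and 64.5 under LD and 425, 559 and 460.1 under CLL and fell by 2.65 ± 0.29 (limma adjusted p = 5.1e-05). *BOA*, a relative of *LUX*, had 11.4, 15.8 and 8.23 under LD and 182, 335 and 216 under CLL and fell by 4.25 ± 0.44 (limma adjusted p = 3.5e-05). The groups did not overlap in any of these genes. Without overlap, 12.5% of all genes lay higher and 15.1% lower under LD. *LUX* itself had 279, 276 and 466 under LD and 627, 941 and 767 under CLL and fell by 1.22 ± 0.27 (limma adjusted p = 0.0084), the smallest of the evening falls, and its call was lost in some fits, with limma adjusted p of LUX (0.026 without 47, 0.032 without 48, 0.072 without 66 and 0.060 without 67).

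The pseudo-response regulators split. *PRR5* had 7.15, 7.04 and 9.60 under LD and 125, 148 and 139.5 under CLL and fell by 3.96 ± 0.45 (limma adjusted p = 7.1e-05). *TOC1* had 186, 153 and 136 under LD and 844, 1007 and 735 under CLL and fell by 2.44 ± 0.25 (limma adjusted p = 3.5e-05). Both genes were tightly grouped within each regime. *PRR9* moved the other way, with 562, 262 and 379 under LD and 57.7, 44.7 and 106 under CLL and a rise of 2.54 ± 0.38 (limma adjusted p = 0.00064). *PRR7* had 2161, 2389 and 1226 under LD and 596, 543 and 638 under CLL and rose by 1.64 ± 0.26 (limma adjusted p = 0.00079). *LNK1*, a coactivator of evening genes, had 2803, 3172 and 1998 under LD and 843, 775 and 881 under CLL and rose by 1.65 ± 0.22 (limma adjusted p = 0.00028). *LNK3*, *LNK4* and the MYB gene *RVE7* also rose, by 1.29, 1.59 and 1.86. Their LD libraries all lay above their CLL libraries. Some of these calls were lost, with adjusted p of PRR7 (0.011 without 66), LNK3 (0.013 without 47, 0.017 without 49, 0.034 without 66, 0.019 without 67 and 0.017 by edgeR without 65), LNK4 (0.013 without 66) and RVE7 (0.017 without 66).

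The paired repressors *CCA1* and *LHY* did not behave alike. *CCA1* had 3355, 4339.6 and 2654 under LD and 2406, 3204 and 4140.5 under CLL, with overlapping groups and a log2 fold change of 0.09 ± 0.25 (limma adjusted p = 0.84, -0.51 with total-count scaling). *LHY* had 2274, 2164 and 2230 under LD and 4873, 6039 and 7165 under CLL and fell by 1.42 ± 0.22 (limma adjusted p = 0.00067), and this call was lost without library 67, with LHY (0.012 without 67). *GI*, which works with FKF1, had 565, 529 and 331 under LD and 296, 223 and 221 under CLL and a log2 fold change of 0.92 ± 0.28 (limma adjusted p = 0.044), which missed the threshold although the groups did not overlap. *CHE*, a repressor of *CCA1*, was the evening gene that rose, with 4591, 6234 and 5021 under LD and 1842, 2559 and 2349.7 under CLL and a rise of 1.23 ± 0.22 (limma adjusted p = 0.0022). The glycine-rich RNA-binding gene *CCR2*, a clock output also called *GRP7*, had 844, 1514 and 1192 under LD and 12174, 13094 and 9088 under CLL and fell by 3.297 ± 0.25 (limma adjusted p = 4.4e-06). The regimes were apart by several fold. *CDF3*, a repressor of *CO*, rose by 1.64 ± 0.30 from 642, 1026 and 1434 under CLL to 2427, 4508 and 2634 under LD (limma adjusted p = 0.0025). The calls of both were lost, with adjusted p of CHE (0.012 without 66, 0.021 without 67 and 0.020 by edgeR without 65) and CDF3 (0.014 without 48, 0.019 without 66 and 0.011 by edgeR without 65).

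**Figure D2:**
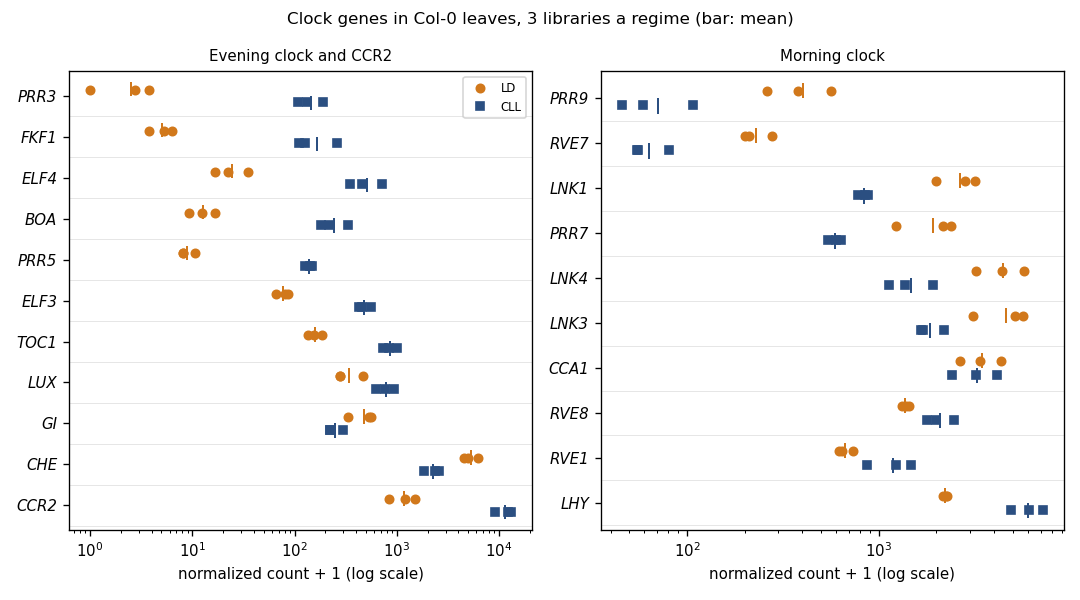
Clock genes. Each point is 1 library (orange circles LD, blue squares CLL), on a log axis of the normalized count plus 1, and bars give the mean of 3 libraries. The 8 evening genes from *PRR3* to *LUX* and *CCR2* lie lower under LD, the 6 morning genes from *PRR9* to *LNK3* lie higher, and *CCA1* alone overlaps.

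The evening element, AAAATATCT, is the site by which CCA1, LHY and the RVE proteins bind evening genes. It was searched on both strands in the 250 bases before the annotated start of 23611 tested genes, in the TAIR10.1 genome with the RefSeq annotation, and 582 (2.46%) hold it. It was present in 5 of the 12 evening genes (41.7%), namely *PRR5*, *TOC1*, *LUX*, *BOA* and *FKF1*, in 1 of the 13 morning genes (7.69%), *RVE7*, and in 3 of the 8 output genes (37.5%). A match is a description of the letters only, and genes without a full match in these 250 bases fell too, such as *ELF3* and *PRR3*. The *ELF4* window opens with AAATATCT, the element short of its first letter. A match across that edge was not searched. The promoters below are those of the evening genes with the largest falls that hold the element, of *CCR2*, which holds it 3 times, and of *RVE7*, which holds it and rose. They are printed 5′ to 3′ on the strand of the gene, with the evening element (AAAATATCT, or AGATATTTT where it lies on the other strand) in capitals. The regions are chr5:8358547-8358796 on the minus strand for *PRR5*, chr5:24674713-24674962 on the plus strand for *TOC1*, chr1:25508389-25508638 on the plus strand for *FKF1*, chr5:24003638-24003887 on the plus strand for *BOA*, chr2:9266558-9266807 on the minus strand for *CCR2* and chr1:6308244-6308493 on the minus strand for *RVE7*.
*PRR5*: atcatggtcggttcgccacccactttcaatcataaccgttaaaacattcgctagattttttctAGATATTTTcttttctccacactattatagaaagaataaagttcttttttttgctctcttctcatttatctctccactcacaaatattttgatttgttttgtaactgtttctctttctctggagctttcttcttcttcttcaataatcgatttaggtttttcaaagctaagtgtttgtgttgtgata
*TOC1*: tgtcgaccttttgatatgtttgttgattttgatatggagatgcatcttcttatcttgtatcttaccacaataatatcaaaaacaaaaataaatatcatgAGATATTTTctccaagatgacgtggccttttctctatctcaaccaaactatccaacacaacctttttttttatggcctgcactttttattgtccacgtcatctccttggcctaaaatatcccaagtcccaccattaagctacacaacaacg
*FKF1*: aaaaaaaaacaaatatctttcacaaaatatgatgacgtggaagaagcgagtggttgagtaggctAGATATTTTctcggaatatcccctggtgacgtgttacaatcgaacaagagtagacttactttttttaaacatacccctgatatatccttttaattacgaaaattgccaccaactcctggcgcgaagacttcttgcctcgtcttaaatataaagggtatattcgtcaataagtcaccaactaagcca
*BOA*: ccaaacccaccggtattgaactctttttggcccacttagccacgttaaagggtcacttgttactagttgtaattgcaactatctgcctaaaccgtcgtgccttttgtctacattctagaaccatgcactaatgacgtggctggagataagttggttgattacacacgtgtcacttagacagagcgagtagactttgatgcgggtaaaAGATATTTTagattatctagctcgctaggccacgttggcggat
*CCR2*: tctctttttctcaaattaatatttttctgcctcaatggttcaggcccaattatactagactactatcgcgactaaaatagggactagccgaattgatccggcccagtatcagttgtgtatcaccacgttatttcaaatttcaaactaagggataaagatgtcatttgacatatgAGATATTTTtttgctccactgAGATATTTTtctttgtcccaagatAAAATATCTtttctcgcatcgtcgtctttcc
*RVE7*: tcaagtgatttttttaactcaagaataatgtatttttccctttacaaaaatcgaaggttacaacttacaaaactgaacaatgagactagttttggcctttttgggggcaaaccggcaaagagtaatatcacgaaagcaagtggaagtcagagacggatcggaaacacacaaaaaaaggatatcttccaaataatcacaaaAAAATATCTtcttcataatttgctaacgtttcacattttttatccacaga
Counted from the base of the element nearest the start, it lies 179 bases before the start in *PRR5*, 178 in *FKF1*, 143 in *TOC1*, 35 in *BOA* and 42 in *RVE7*, and at 68, 47 and 23 in *CCR2*. The G-box CACGTG, read by bHLH and bZIP factors, was present in 6 of the 13 morning promoters (46.2%) against 7% of all promoters.

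Some antenna and photosystem I genes rose under LD. Of 20 antenna genes tested, 7 rose and none fell, with a median of 1.65 (1.05 with total-count scaling), and 19 of 20 had a positive log2 fold change. edgeR called 18 of them higher, where 4.62% of all genes were called higher. For the 21 genes with a mean log2 level over 17 the median prior SD that limma assigned was 0.66, against a median observed SD of 0.34. Of 24 nuclear photosystem genes, 3 rose, with a median of 1.28, and edgeR called 22. With total-count scaling limma called none of these, and the median was 0.68. Of 16 Calvin cycle genes none passed with limma, edgeR called 9 higher, and the median was 0.95. The antenna and photosystem counts were 2 and 0 without library 66 and 1 and 0 without library 67.

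*LHCB1.4* and the 3 *LHCB2* genes encode the major antenna of photosystem II. *LHCB1.4* had 217710, 402000 and 211870 under LD and 42960, 50257 and 55706 under CLL and rose by 2.42 ± 0.44 (limma adjusted p = 0.0022). *LHCB2.3* had 79563, 104280 and 78122 under LD and 12482, 19144 and 22099 under CLL and rose by 2.31 ± 0.33 (limma adjusted p = 0.00043). *LHCB2.1*, *LHCB2.2* and the minor antenna gene *LHCB4.2* rose by 2.12, 2.36 and 1.91. In all 5 genes the lowest LD library lay well above the highest CLL library, and library 48 was the highest. *LHCA6* and *LHCB7* also rose, by 1.39 and 1.12. Copies within the *LHCB1* and *LHCB2* groups are near identical, so reads may be shared among them. Calls that did not hold had limma adjusted p of LHCB1.4 (0.015 without 66 and 0.023 without 67), LHCB2.2 (0.010 without 66 and 0.016 without 67), LHCB2.1 (0.024 without 66 and 0.041 without 67), LHCB4.2 (0.015 without 48, 0.014 without 49, 0.034 without 66 and 0.065 without 67), LHCA6 (0.016 without 67) and LHCB7 (0.018 without 49, 0.033 without 66, 0.042 without 67 and 0.028 by edgeR without 65).

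The 3 photosystem genes that rose, *PSAD-2*, *PSAH-1* and *PSAG*, belong to photosystem I and rose by 1.502, 1.43 and 1.3998. *PSAD-2* had 45551, 70496 and 50827 under LD and 12681, 22779 and 24857 under CLL, and its CLL library 65 lay below the other CLL libraries. Each of the 3 lost its limma call in most leave-one-out fits, with adjusted p of PSAD-2 (0.010 without 47, 0.029 without 48, 0.020 without 49, 0.032 without 66 and 0.035 without 67), PSAH-1 (0.016 without 48, 0.015 without 49, 0.028 without 66 and 0.053 without 67) and PSAG (0.021 without 48, 0.016 without 49, 0.027 without 66 and 0.066 without 67). *RBCS1A*, a small subunit of Rubisco, had 734550, 1393700 and 812930 under LD and 531480, 597930 and 494340 under CLL and a log2 fold change of 0.80 ± 0.75 (limma adjusted p = 0.57). Its LD libraries 47 and 49 lay close above the CLL libraries, and library 48 far above. Rubisco activase, *RCA*, had a log2 fold change of 1.15 ± 0.61 (adjusted p = 0.27 with limma and 0.00080 with edgeR).

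Chlorophyll synthesis and photoprotection moved in part. *PORA*, a light-dependent protochlorophyllide oxidoreductase best known from seedlings grown in the dark, had 265, 260.3 and 139.9 under LD and 8.66, 20.09 and 53.6 under CLL and rose by 3.26 ± 0.55 (limma adjusted p = 0.0014). *GUN4*, which aids the magnesium chelatase, had 300.3, 439.8 and 398 under LD and 115, 149.7 and 118 under CLL and rose by 1.55 ± 0.28 (limma adjusted p = 0.0024). They were the 2 of 18 chlorophyll genes called, and the list's median of 0.41 turned to -0.19 with total-count scaling. The early light-induced genes *ELIP1* and *ELIP2*, which bind pigments under light stress, were among 4 of 15 photoprotection genes that rose. *ELIP1* had 1626, 2632 and 7060.1 under LD and 462, 197 and 363 under CLL and rose by 3.27 ± 0.43 (limma adjusted p = 0.00022). *ELIP2* had 462, 769 and 1764 under LD and 102, 60.3 and 80.4 under CLL and rose by 3.42 ± 0.40 (limma adjusted p = 9.5e-05). In both genes library 49 was the highest by more than the rest of the LD spread. The thylakoid kinase gene *STN8* rose by 1.42 and the one-helix protein gene *OHP2* by 1.33. Leaving out a library ended some calls, with limma adjusted p of PORA (0.011 without 48 and 0.011 without 66), GUN4 (0.011 without 48, 0.011 without 66 and 0.024 without 67), STN8 (0.021 without 66 and 0.041 without 67) and OHP2 (0.026 without 67 and 0.011 by edgeR without 65).

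The light signalling genes that rose included repressors of photomorphogenesis and of UV-B signalling. Of 23 photoreceptor and signalling genes, 5 rose and none fell, with a median of 0.44 that turned to -0.16 with total-count scaling. *BBX28*, a B-box protein that restrains HY5, had 5499, 7965 and 8320.5 under LD and 1049.9, 1172 and 1562 under CLL and rose by 2.52 ± 0.24 (limma adjusted p = 2.0e-05). *BBX30*, a B-box microprotein gene, had 599, 1534 and 1573 under LD and 134, 229 and 219 under CLL and rose by 2.57 ± 0.35 (limma adjusted p = 0.00029). *RUP2*, a repressor of the UV-B receptor, had 1723, 3814 and 2659 under LD and 776, 657 and 785 under CLL and rose by 1.81 ± 0.27 (limma adjusted p = 0.00049). All LD libraries of these genes lay above all CLL libraries, most narrowly in *RUP2*. *BBX29* and *STO* rose by 1.55 and 1.44, and lost their calls with adjusted p of BBX29 (0.020 without 47, 0.016 without 48, 0.040 without 49, 0.029 without 66, 0.023 without 67 and 0.028 by edgeR without 65) and STO (0.012 without 66). The photoreceptor genes *PHYA*, *PHYB* and *CRY1* had log2 fold changes of 0.34, 0.24 and 0.56, and none of them passed the test. *HY5* had 259, 308 and 551 under LD and 316, 337 and 531 under CLL, with overlapping groups.

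Many genes of the PIF and shade pathway were higher under LD. Of 19 tested, 11 rose and none fell, with a median of 1.41 (0.82 with total-count scaling, where 6 rose and 1 fell), and the count was 6 without library 66. *PIF4*, which links light and warmth to growth, had 4305, 5877 and 4046 under LD and 734, 856 and 921 under CLL and rose by 2.49 ± 0.22 (limma adjusted p = 1.4e-05). *PIF5* and *PIF7*, its relatives, rose by 1.46 and 1.69. *YUC8*, an auxin synthesis gene that PIF4 is known to activate, had 90.098, 141 and 49.4 under LD and 5.19, 6.39 and 3.70 under CLL and rose by 3.85 ± 0.54 (limma adjusted p = 0.00039), and *YUC9* rose by 2.91. Both *YUC* genes had few reads under CLL. *IAA29*, an auxin repressor gene induced by shade, had 393, 447 and 400.5 under LD and 21.4, 72.1 and 29.6 under CLL and rose by 3.49 ± 0.41 (limma adjusted p = 9.4e-05). The homeobox gene *HAT2* had 752, 939 and 1026 under LD and 144, 312 and 322 under CLL and rose by 1.88 ± 0.30 (limma adjusted p = 0.0010), and *HAT1* and *HAT3* rose by 1.41 and 1.31. The growth inhibitors *PAR2* and *HFR1*, which bind PIFs and are themselves induced by shade, rose by 2.08 and 2.27. Some of these calls were lost, with limma adjusted p of PIF5 (0.016 without 66), PIF7 (0.011 without 47, 0.034 without 48, 0.011 without 49, 0.029 without 66, 0.012 without 67 and 0.017 by edgeR without 65), YUC9 (0.011 without 47, 0.018 without 48, 0.019 without 49, 0.020 without 67 and 0.021 by edgeR without 65), HAT1 (0.016 without 66 and 0.011 by edgeR without 65), HAT3 (0.011 without 47, 0.018 without 48, 0.013 without 49, 0.043 without 66, 0.026 without 67 and 0.010 by edgeR without 65) and HFR1 (0.012 without 47, 0.041 without 49, 0.030 without 66 and 0.036 without 67).

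Some auxin genes rose as well. Of 26 tested, 9 rose, none fell and 17 were not called, with a median of 0.75 (0.19 with total-count scaling, where 9 rose and 1 fell), and 8 of the rises remained without any of the 5 libraries other than 65. *IAA17*, also called *AXR3*, had 7025, 10396 and 13481 under LD and 773, 703 and 822 under CLL and rose by 3.70 ± 0.25 (limma adjusted p = 1.3e-06). *IAA14* had 775, 1164 and 1008 under LD and 122, 117 and 149.7 under CLL and rose by 2.90 ± 0.26 (limma adjusted p = 1.4e-05). *IAA5* had 173, 260.3 and 249.6 under LD and 14.4, 31.0 and 25.9 under CLL and rose by 3.25 ± 0.41 (limma adjusted p = 0.00017). The groups were apart by several fold in each of these genes. *IAA1*, *IAA6* and *IAA19* rose by 2.24, 2.49 and 2.0999, and the auxin efflux gene *PIN7* by 1.62. Of these, *IAA1* lost its call, with adjusted p of IAA1 (0.017 without 48, 0.017 without 49 and 0.014 without 66).

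SAUR proteins activate proton pumps and so acidify the wall of growing cells. *SAUR19* had 126, 192 and 209.8 under LD and 6.35, 18.3 and 18.5 under CLL and rose by 3.62 ± 0.49 (limma adjusted p = 0.00026). Its neighbour *AT5G18030*, of the same cluster on chromosome 5, had 1350, 3106 and 2665 under LD and 130.4, 204 and 139 under CLL and rose by 3.85 ± 0.31 (limma adjusted p = 5.5e-06). *SAUR15* had 624, 776 and 1446 under LD and 84.8, 172 and 199.6 under CLL and rose by 2.63 ± 0.36 (limma adjusted p = 0.00031). No LD library of these genes reached down to a CLL library. Over 72 genes annotated as SAUR-like, a family counted after its values were seen, 22 rose and 3 fell. The falls were *AT1G56150*, *AT2G28085* and *AT3G12830*. An annotated long noncoding RNA, *AT5G02865*, lies beside the cluster (chromosome 5, 5967101 to 5967987, minus strand), had 163, 201 and 352 under LD and 3.46, 13.7 and 11.1 under CLL and rose by 4.62 ± 0.53 (limma adjusted p = 7.7e-05). Genes of the cluster are similar in sequence, and reads may be shared among them.

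Genes that loosen the cell wall were in part much higher under LD. Of 15 expansins and xyloglucan enzymes (XTHs), 6 rose and 1 fell, with a median of 0.78 (0.18 with total-count scaling), and 3 rose without library 66. *EXPA8* had 15344, 26970 and 17820 under LD and 1293, 1896 and 1794 under CLL and rose by 3.57 ± 0.26 (limma adjusted p = 3.1e-06). *EXPA11* had 5549, 11504 and 8469 under LD and 787, 769 and 706 under CLL and rose by 3.43 ± 0.25 (limma adjusted p = 3.2e-06). *EXPA1* had 33344, 42930 and 38898 under LD and 12066, 9327 and 9999.6 under CLL and rose by 1.88 ± 0.27 (limma adjusted p = 0.00040). Each stood several fold above CLL in every LD library. Outside the list, *XTH31* had 4792, 4028 and 7365 under LD and 276, 418 and 325 under CLL and rose by 3.96 ± 0.26 (limma adjusted p = 1.3e-06). The expansin genes *EXP3* and *EXPA5* and the XTH gene *XTH17* rose by 1.73, 1.08 and 2.71, and *XTH9* fell by 1.87. Lost calls had limma adjusted p of EXP3 (0.019 without 66 and 0.023 without 67), EXPA5 (0.021 without 48, 0.016 without 49, 0.045 without 66, 0.060 without 67 and 0.017 by edgeR without 65), XTH17 (0.010 without 66) and XTH9 (0.028 without 48, 0.011 without 49 and 0.061 without 67).

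**Figure D3:**
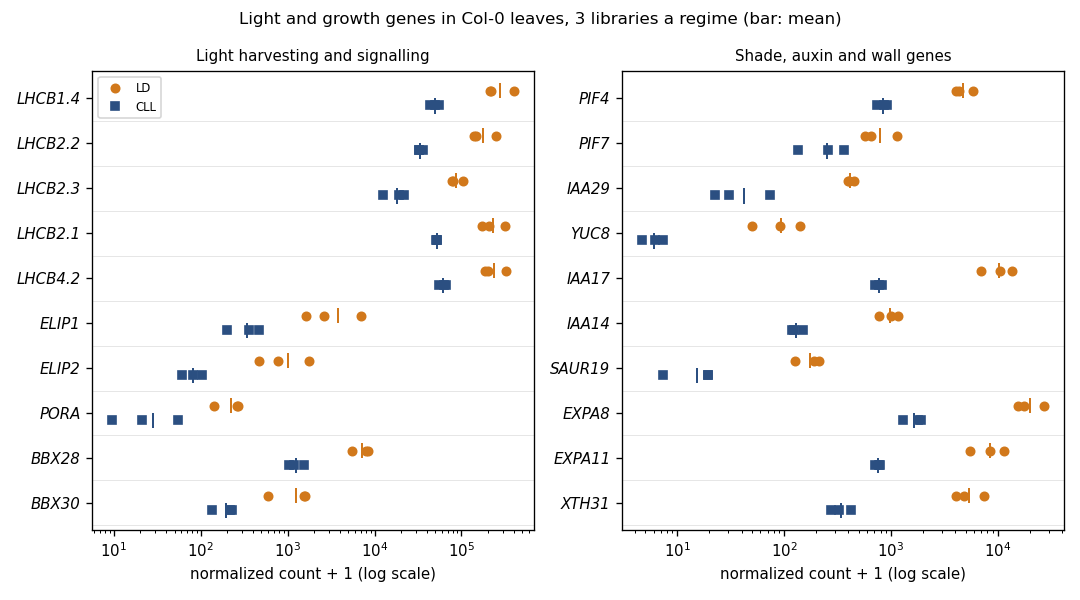
Light and growth genes. Each point is 1 library (orange circles LD, blue squares CLL), on a log axis of the normalized count plus 1, and bars give the mean of 3 libraries. All 20 genes lie higher under LD with no overlap, from *LHCB1.4* at 211870 or more under LD to *YUC8* at 49.4 to 141.

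Many genes of salicylic acid synthesis, regulation and output were lower under LD. Of 13 genes of its synthesis and turnover, 7 fell and none rose, with a median of -1.59. Of 19 regulators, 11 fell and none rose, with a median of -1.81, and of 10 output genes 5 fell and none rose, with a median of -2.11. The same 3 medians were -2.10, -2.41 and -2.71 with total-count scaling. Without library 67 the regulator count was 3, and without library 66 the counts were 5, 5 and 4. The summed levels of the regulators were 14198, 13049 and 15252 under LD and 28977, 44379 and 30095 under CLL.

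*ICS1*, which makes isochorismate, the precursor of salicylic acid, had 599, 572 and 421 under LD and 1853, 1389.7 and 1279.7 under CLL and fell by 1.503 ± 0.23 (limma adjusted p = 0.00079). *EDS5*, its exporter from the plastid, had 123, 137 and 163 under LD and 659.7, 771 and 504 under CLL and fell by 2.17 ± 0.27 (limma adjusted p = 0.00013). *PBS3*, which conjugates isochorismate to glutamate, had 169, 165 and 136 under LD and 787, 717 and 533 under CLL and fell by 2.096 ± 0.26 (limma adjusted p = 0.00014). The groups of these 3 steps did not overlap. The genes that remove salicylic acid by hydroxylation were lower too. *DLO1* had 60.1, 338 and 134 under LD and 1565, 1895 and 958 under CLL and fell by 3.33 ± 0.46 (limma adjusted p = 0.00034), and *DMR6* had 1483, 1775 and 1962 under LD and 7499.5, 7632 and 5760.2 under CLL and fell by 1.998 ± 0.22 (limma adjusted p = 5.7e-05). The LD library 48 was the highest of its group in *DLO1*. *ALD1* and *FMO1*, which make the mobile signals pipecolate and its hydroxylated form, fell by 4.103 and 3.92, and lost their calls with adjusted p of ALD1 (0.010 without 66 and 0.013 without 67) and FMO1 (0.010 without 48, 0.020 without 66 and 0.046 without 67).

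Among the regulators, *SARD1* and *CBP60G* encode the factors that activate *ICS1*. *SARD1* had 233, 292 and 272 under LD and 1736, 2039 and 1514 under CLL and fell by 2.72 ± 0.22 (limma adjusted p = 6.9e-06). *CBP60G* had 144, 190.0 and 143 under LD and 1105, 1076 and 861 under CLL and fell by 2.67 ± 0.25 (limma adjusted p = 1.7e-05). In both, the regimes lay several fold apart. *WRKY53* had 45.8, 42.2 and 72.7 under LD and 307, 653 and 449.99 under CLL and fell by 3.08 ± 0.36 (limma adjusted p = 8.2e-05). *EDS1*, *SAG101*, *WRKY18*, *WRKY38*, *WRKY46*, *WRKY62*, *WRKY70* and *ACD6* fell as well, by 1.33 to 3.48, and each lost its call without library 67. Their adjusted p were EDS1 (0.012 without 67), SAG101 (0.018 without 66 and 0.017 without 67), WRKY18 (0.013 without 66 and 0.017 without 67), WRKY38 (0.011 without 47, 0.017 without 48, 0.055 without 66 and 0.063 without 67), WRKY46 (0.016 without 67), WRKY62 (0.017 without 47, 0.015 without 49, 0.041 without 66 and 0.039 without 67), WRKY70 (0.011 without 47, 0.010 without 48, 0.030 without 66 and 0.040 without 67) and ACD6 (0.016 without 48, 0.017 without 49, 0.039 without 66 and 0.016 without 67). *PAD4*, the partner of EDS1, had overlapping groups, with 1380.1, 1947 and 2879 under LD and 2079, 2347 and 2042 under CLL, and *NPR1*, a receptor of salicylic acid, had a log2 fold change of -0.70 ± 0.22 (limma adjusted p = 0.054).

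*PR1*, a marker of salicylic acid action, had 120.1, 278 and 1549.7 under LD and 8283, 12351 and 10594 under CLL and fell by 4.78 ± 0.61 (limma adjusted p = 0.00017). Its LD libraries were widely spread, with 49 the highest, and even that library lay far below CLL. *PR2*, a glucanase gene, had 568, 1596 and 1125 under LD and 20836, 18369 and 13934 under CLL and fell by 4.12 ± 0.32 (limma adjusted p = 4.7e-06). *PR5*, a thaumatin-like gene, had 1716, 3739.8 and 2947 under LD and 20047, 16620 and 15731 under CLL and fell by 2.704 ± 0.28 (limma adjusted p = 3.5e-05). *NUDT6*, a nudix hydrolase gene, had 190.2, 276 and 351 under LD and 2345, 2273 and 1942 under CLL and fell by 3.04 ± 0.25 (limma adjusted p = 6.9e-06). In these 4 genes the regimes were separated by several fold. *PCR2* fell by 2.18, and its call was lost with adjusted p of PCR2 (0.023 without 66 and 0.015 without 67). *PCC1*, another output gene, had 10660, 17861 and 28716 under LD and 22717, 41316 and 20379 under CLL, with overlapping groups.

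Many kinases at the cell surface, a class that often responds to salicylic acid, were lower under LD. Of 20 wall-associated kinases (WAKs) and cysteine-rich kinases (CRKs) tested, 12 fell and none rose, with a median of -2.16, and 10 of the falls remained without any of the libraries 47, 48, 49, 66 and 67. *WAK3* had 27.2, 40.5 and 38.4 under LD and 514, 567 and 372 under CLL and fell by 3.74 ± 0.33 (limma adjusted p = 1.4e-05). *CRK36* had 55.8, 31.7 and 57.6 under LD and 629.7, 527 and 398 under CLL and fell by 3.42 ± 0.34 (limma adjusted p = 2.6e-05). *CRK7* had 67.2, 70.4 and 69.9 under LD and 885, 766 and 446 under CLL and fell by 3.26 ± 0.31 (limma adjusted p = 2.0e-05). The LD libraries of each were within a narrow band at the bottom. *CRK37* and *CRK38*, next to *CRK36* on chromosome 4, had log2 fold changes of -3.78 and -3.76. The W-box TTGAC, followed by C or T, the site of WRKY factors, was present on either strand in 13 of these 20 promoters (65%), in 40% of the promoters of all genes that fell, in 22.8% of those that rose and in 28.5% of all. It was present in 23.1% of the promoters of salicylic acid synthesis and turnover, 21.1% of those of its regulators and 20% of those of ER folding, lists with many falls, and in 50% of the promoters of the auxin list, which had rises only.

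The peptide genes of defence went in opposite directions. *THI2.2*, a thionin gene, had the largest rise of the genes named by rule, with 1886, 2026 and 3084 under LD and 28.9, 17.3 and 47.1 under CLL and a rise of 6.26 ± 0.35 (limma adjusted p = 7.0e-07), a ratio of means of 75.0. Its relative *THI2.1* had no reads under LD and 6.35, 4.57 and 14.8 under CLL, at least 5.45-fold lower under LD. The defensin gene *PDF1.2*, a marker of jasmonate with ethylene, had 192, 579 and 446 under LD and 3415, 4244 and 4114 under CLL and fell by 3.41 ± 0.32 (limma adjusted p = 2.0e-05). *PDF1.3* had 78.7, 186 and 108 under LD and 2159, 2199 and 1852 under CLL and fell by 4.13 ± 0.29 (limma adjusted p = 2.4e-06). *PDF1.2c* had 7.15, 75.6 and 74.1 under LD and 2156, 2607 and 2331 under CLL and fell by 6.03 ± 0.62 (limma adjusted p = 3.3e-05). The CLL libraries of these 3 genes lay close together and far above LD, but the genes are near-identical copies and may share reads. The list counts were 1 rise and 5 falls of 10, the last fall being the basic chitinase *HCHIB*, by 2.52. Calls were lost with limma adjusted p of THI2.1 (0.011 without 48, 0.012 without 49, 0.016 without 67 and 0.038 by edgeR without 65) and HCHIB (0.019 without 47, 0.028 without 49, 0.013 without 66, 0.051 without 67 and 0.011 by edgeR without 65).

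Camalexin is the sulphur-containing phytoalexin made from tryptophan. *CYP71A13*, which makes indole acetonitrile, had 0, 8.80 and 2.74 under LD and 232, 402 and 219.9 under CLL and fell by 6.37 ± 0.69 (limma adjusted p = 5.5e-05). *PAD3*, the last enzyme, had 2.86, 15.8 and 20.6 under LD and 367, 691 and 361 under CLL and fell by 5.33 ± 0.57 (limma adjusted p = 4.7e-05). These genes stood near the floor in all LD libraries. *CYP71A12* and *AT1G26380*, annotated as a FAD-binding berberine family gene, also fell, by 3.69 and 3.94. *CYP82C2*, with 1 read under LD, had a ratio of CLL to LD of 15.3 (95% counting interval 2.55 to 625), which makes 5 falls of 15 genes. The list median was -0.55. Calls that did not hold had limma adjusted p of CYP71A12 (0.024 without 47, 0.033 without 49, 0.049 without 66 and 0.049 without 67) and CYP82C2 (0.042 without 48, 0.045 without 49, 0.039 without 66, 0.024 without 67 and 0.11 by edgeR without 65).

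**Figure D4:**
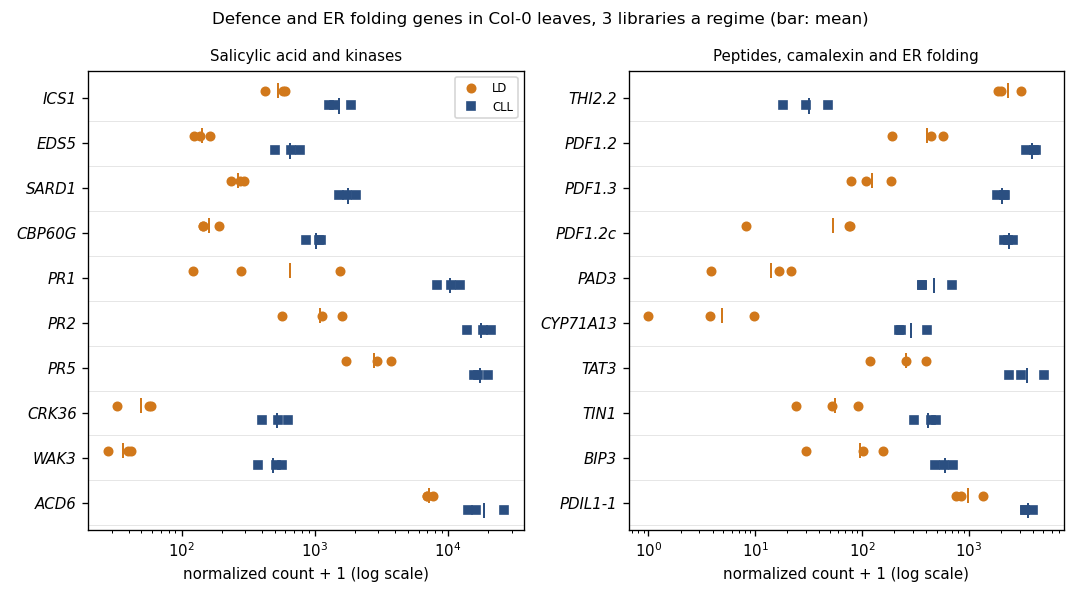
Defence and ER folding genes. Each point is 1 library (orange circles LD, blue squares CLL), on a log axis of the normalized count plus 1, and bars give the mean of 3 libraries. *THI2.2* alone lies higher under LD and the other 19 genes lie lower, with no overlap in any gene.

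Many genes that fold proteins in the endoplasmic reticulum (ER) were lower under LD. Of 25 tested, 15 fell and none rose, with a median of -1.15 (-1.75 with total-count scaling), and 24 of 25 had a negative log2 fold change. The count was 5 without library 66 and 5 without library 67. In those fits 583 of 26843 and 374 of 26703 genes were called lower. *PDIL1-1*, a disulfide isomerase gene, had 752, 1363 and 841 under LD and 3362, 3983 and 3343 under CLL and fell by 1.90 ± 0.24 (limma adjusted p = 0.00018). *CRT3*, a calreticulin needed for immune receptors, had 1852, 2879.6 and 2315 under LD and 8007, 9194 and 7314 under CLL and fell by 1.81 ± 0.23 (limma adjusted p = 0.00017). *ERDJ3B*, a cochaperone, had 1107, 1066 and 1077 under LD and 2929.9, 3514 and 2998 under CLL and fell by 1.53 ± 0.20 (limma adjusted p = 0.00021). In each, the highest LD library was below the lowest CLL library. *TIN1*, induced by ER stress, had 51.5, 22.9 and 90.5 under LD and 491, 438 and 306 under CLL and fell by 3.06 ± 0.43 (limma adjusted p = 0.00039). The chaperone genes *BIP1*, *BIP2* and *BIP3* fell by 1.32, 1.80 and 2.92, and lost their calls with adjusted p of BIP1 (0.018 without 47, 0.021 without 49, 0.044 without 66 and 0.040 without 67), BIP2 (0.012 without 67) and BIP3 (0.013 without 66 and 0.013 without 67). *BZIP60*, a transducer of the unfolded protein response, had 1316, 2267 and 2566 under LD and 2444, 2527 and 1945 under CLL, with overlapping groups (limma adjusted p = 0.65).

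ER bodies are compartments that store the β-glucosidase PYK10, which with jacalin lectins acts on glucosinolates after wounding. Of 22 genes of ER bodies and glucosinolate breakdown, 11 fell and none rose, with a median of -1.58, and the count was 11 without library 66 and 4 without library 67. *PYK10* had 2.86, 0 and 1.37 under LD and 947, 106 and 759 under CLL, a ratio of CLL to LD of 439 (95% counting interval 150 to 2130), with 3 reads under LD. *JAL22* had no reads under LD and 135, 34.7 and 139 under CLL, and was at least 71.8-fold lower under LD. *GLL23* had 11.4, 28.1 and 5.49 under LD and 801, 136 and 426 under CLL and fell by 4.76 ± 0.63 (limma adjusted p = 0.00023). In all 3 genes library 66 was the lowest of CLL, though still above LD. *BGLU18*, the ER-body glucosidase of leaves, had 2454, 1907 and 2264 under LD and 14026, 5719 and 9892 under CLL and fell by 2.08 ± 0.29 (limma adjusted p = 0.00034). The jacalin-type genes *JAL34*, *JR1* and *PBP1*, the lipase-like *GLL22* and the membrane gene *MEB1* fell by 1.43 to 4.97, and *JAL31* and *JAL33* had ratios of CLL to LD of 29.6 (95% counting interval 5.11 to 1190) and 56.4 (95% counting interval 15.4 to 469). Their calls were lost with adjusted p of GLL22 (0.016 without 67), JAL31 (0.024 without 47, 0.037 without 49, 0.043 without 67 and 0.10 by edgeR without 65), JAL33 (0.022 without 67), JAL34 (0.016 without 67), JR1 (0.031 without 67), PBP1 (0.022 without 47, 0.028 without 49, 0.068 without 67 and 0.013 by edgeR without 65) and MEB1 (0.015 without 66 and 0.033 without 67). The myrosinase genes *TGG1* and *TGG2* had log2 fold changes of -0.40 and 0.23 with overlapping groups. *PYK10* overlaps another annotated gene, and counting by strand is not stated.

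Genes of glucosinolate synthesis were called in both directions. Of 30 genes, 2 rose and 2 fell, with a median of 0.54 that turned to -0.06 with total-count scaling. *MYB51*, the regulator of indole glucosinolates, had 93.0, 114 and 82.3 under LD and 371, 415 and 283 under CLL and fell by 1.87 ± 0.30 (limma adjusted p = 0.00093). *MAM3*, a chain elongation gene, had 235, 232 and 232 under LD and 730.2, 807 and 655 under CLL and fell by 1.64 ± 0.23 (limma adjusted p = 0.00037). The groups of both were separate. *IPMI1* and *SOT18* rose by 1.06 and 1.001. Leaving out a library ended some calls, with limma adjusted p of MYB51 (0.014 without 66), IPMI1 (0.011 without 48, 0.021 without 49, 0.026 without 66, 0.060 without 67 and 0.040 by edgeR without 65) and SOT18 (0.029 without 48, 0.020 without 49, 0.041 without 66, 0.062 without 67 and 0.048 by edgeR without 65).

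Jasmonate and ethylene genes changed in both directions. Of 27 jasmonate genes, 1 rose and 3 fell. *TAT3*, a tyrosine aminotransferase gene induced by jasmonate, had 119, 259 and 399 under LD and 3086, 5076 and 2389 under CLL and fell by 3.85 ± 0.37 (limma adjusted p = 2.4e-05). *AOC3*, an allene oxide cyclase gene, had 21.5, 21.1 and 30.2 under LD and 171, 176 and 132 under CLL and fell by 2.68 ± 0.39 (limma adjusted p = 0.00051). *AOS*, the enzyme before it, had 14334, 19622 and 17668 under LD and 5911, 9211 and 5256 under CLL and rose by 1.37 ± 0.27 (limma adjusted p = 0.0040). *AOS* and *AOC3*, genes of neighbouring steps of 1 pathway, were thus called in opposite directions, each without overlap. The other allene oxide cyclase genes of the list were not called. *VSP1* fell by 2.69. Of 18 ethylene genes, 2 rose and 3 fell. *ACS4*, an ACC synthase gene that auxin induces, had 399, 361 and 329 under LD and 19.6, 78.5 and 43.4 under CLL and rose by 3.12 ± 0.43 (limma adjusted p = 0.00033), and *ACS8* rose by 3.87. *ACS2*, *ACS7* and the response factor gene *ERF1* fell, all with few reads. *ACS2* had 0, 0 and 1.37 under LD and 9.81, 10.04 and 6.47 under CLL, *ACS7* had no reads under LD and 3.46, 4.57 and 7.39 under CLL, and *ERF1* had 2.86, 0 and 4.11 under LD and 23.7, 25.6 and 16.6 under CLL. Some of these calls were lost, with limma adjusted p of AOS (0.014 without 48, 0.013 without 49, 0.051 without 67 and 0.013 by edgeR without 65), VSP1 (0.014 without 47, 0.026 without 48, 0.011 without 66 and 0.076 without 67), ACS8 (0.011 without 49 and 0.012 without 67), ACS2 (0.017 without 47, 0.023 without 48, 0.018 without 66, 0.018 without 67 and 0.10 by edgeR without 65), ACS7 (0.015 without 47, 0.019 without 48, 0.021 without 49, 0.014 without 66, 0.029 without 67 and 0.094 by edgeR without 65) and ERF1 (0.010 without 47, 0.024 without 48, 0.033 without 66, 0.032 without 67 and 0.033 by edgeR without 65).

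Among the other hormones, a gene that inactivates gibberellin and a gene that inactivates brassinosteroid rose. *GA2OX1*, of the first kind, had 122, 96.7 and 141 under LD and 4.04, 4.57 and 6.47 under CLL and rose by 4.33 ± 0.49 (limma adjusted p = 6.8e-05). *BAS1*, of the second, had 699, 832 and 653 under LD and 102, 119.6 and 115 under CLL and rose by 2.68 ± 0.25 (limma adjusted p = 2.0e-05). The gibberellin-induced *GASA6* had 10703, 12528 and 16829 under LD and 2149, 2811 and 3413 under CLL and rose by 2.26 ± 0.25 (limma adjusted p = 6.8e-05). All 3 were apart by several fold with no overlap. The gibberellin receptor gene *GID1A* fell by 1.13 and *GA20OX3*, with no reads under LD, was at least 5.11-fold lower, which makes 2 rises and 2 falls of 20. *BEE1* was the other of 2 rises among 7 brassinosteroid genes, by 1.66. Of 14 cytokinin genes 3 rose and none fell, the response regulators *ARR15*, *ARR6* and *ARR9*, by 1.80, 1.22 and 1.14. Lost calls had limma adjusted p of GID1A (0.010 without 47, 0.028 without 48, 0.014 without 49, 0.042 without 66, 0.037 without 67 and 0.037 by edgeR without 65), GA20OX3 (0.023 without 47, 0.033 without 48, 0.034 without 49, 0.034 without 66 and 0.16 by edgeR without 65), BEE1 (0.010 without 49, 0.019 without 66 and 0.027 without 67), ARR15 (0.010 without 66 and 0.011 without 67), ARR6 (0.014 without 47, 0.024 without 49, 0.013 without 66, 0.060 without 67 and 0.026 by edgeR without 65) and ARR9 (0.021 without 49, 0.045 without 66, 0.046 without 67 and 0.032 by edgeR without 65).

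Abscisic acid genes were mostly not called, with 1 rise and 1 fall of 24. *NCED3*, the rate-limiting step of synthesis, had 176, 267 and 148 under LD and 27.7, 61.2 and 37.0 under CLL and rose by 2.24 ± 0.40 (limma adjusted p = 0.0023). *CYP707A3*, which breaks the hormone down, had 18.6, 22.9 and 21.9 under LD and 62.3, 123 and 133 under CLL and fell by 2.21 ± 0.45 (limma adjusted p = 0.0052). The groups of both genes were separate. The dehydrin *RAB18* had 486, 927 and 863 under LD and 141, 245 and 271 under CLL and was the 1 gene of 13 of cold and drought to rise, by 1.79. *COR15A* and *RD29A* had log2 fold changes of 1.45 and -0.17, with library 66 the highest and library 65 the lowest CLL library in both. Calls were lost with limma adjusted p of NCED3 (0.013 without 48 and 0.022 without 67), CYP707A3 (0.011 without 47, 0.010 without 48, 0.012 without 49, 0.037 without 66 and 0.055 without 67) and RAB18 (0.013 without 48, 0.012 without 49, 0.011 without 66 and 0.011 without 67).

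Of 27 flavonoid genes, 3 rose and 6 fell, the entry enzyme being among the rises and genes of the branch to anthocyanin among the falls. *CHS*, the entry enzyme also called *TT4*, had 23037, 29695 and 25698 under LD and 10704, 8239 and 10482 under CLL and rose by 1.42 ± 0.26 (limma adjusted p = 0.0023). *MYB11*, a regulator of flavonols, had 34.3, 61.6 and 69.9 under LD and 4.62, 0.913 and 3.70 under CLL and rose by 3.87 ± 0.60 (limma adjusted p = 0.00078), while its relative *MYB111* fell by 1.98. *MYBL2*, a repressor of anthocyanin genes, had 2044, 2136 and 1954 under LD and 253, 584 and 775 under CLL and rose by 2.07 ± 0.32 (limma adjusted p = 0.00081). These rises were without overlap. The falls included late genes. *DFR*, which commits to anthocyanin, had 2.86, 0 and 38.4 under LD and 855, 106 and 619 under CLL and fell by 6.17 ± 1.04 (limma adjusted p = 0.0014). *LDOX*, *UF3GT* and *AT5MAT* fell by 3.91, 5.19 and 4.97, and *TT8*, their bHLH regulator, had 2 reads under LD and a ratio of 24.0 (95% counting interval 6.46 to 201). CLL library 66 was the lowest of its group in all 5 genes, and 49 was the highest LD library. Calls that did not hold had limma adjusted p of CHS (0.027 without 66 and 0.021 without 67), MYB111 (0.011 without 47, 0.021 without 48, 0.040 without 66 and 0.087 without 67), DFR (0.026 without 67), LDOX (0.016 without 48 and 0.042 without 67), UF3GT (0.016 without 48 and 0.029 without 67), AT5MAT (0.021 without 47, 0.035 without 48 and 0.056 without 67) and TT8 (0.017 without 67 and 0.010 by edgeR without 65).

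Flowering genes were mostly not called. The florigen gene *FT* had 37.2, 44.0 and 174 under LD and 43.9, 131 and 108 under CLL, with overlapping groups and a log2 fold change of -0.37 ± 0.57 (limma adjusted p = 0.71). *CO*, which activates *FT* in long days and was counted with the clock outputs, had 2.86, 1.76 and 0 under LD and 17.3, 12.8 and 27.7 under CLL, a ratio of CLL to LD of 12.6 (95% counting interval 4.15 to 62.5) with 3 reads under LD (limma adjusted p = 0.0050). *FLC*, a repressor, had 17.2, 12.3 and 31.5 under LD and 49.1, 36.5 and 52.7 under CLL (limma adjusted p = 0.14). *CO* and *FLC* had too few reads for small differences to be detectable at this depth. Of 31 genes tested, the repressors *SVP* and *TOE3* rose, by 1.06 and 1.38, and the MADS gene *AGL42* fell by 3.21. The floral identity genes *AP1* and *LFY* had no reads under LD. Under CLL *AP1* had 13.9, 0 and 11.1 and *LFY* 4.04, 0 and 12.01, with no reads in library 66, and neither passed the test. Leaving out a library ended some calls, with limma adjusted p of CO (0.013 without 48, 0.024 without 49, 0.012 without 66, 0.039 without 67 and 0.021 by edgeR without 65), SVP (0.012 without 48, 0.016 without 49, 0.038 without 66, 0.033 without 67 and 0.036 by edgeR without 65), TOE3 (0.018 without 66 and 0.017 without 67) and AGL42 (0.033 without 48, 0.031 without 49, 0.016 without 66, 0.055 without 67 and 0.042 by edgeR without 65).

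Markers of other tissues were checked because each library pools leaves. The markers of seed summed to 1.43, 0 and 1.37 under LD and 2.31, 2.74 and 6.47 under CLL and those of root to 1.43, 8.80 and 5.49 under LD and 16.7, 7.30 and 12.9 under CLL, both near 0. The markers of floral organs summed to 445, 533 and 495 under LD and 182, 359 and 309 under CLL, and none of 9 passed the test. The mesophyll markers *RBCS1A*, *RCA*, *LHCB3*, *LHCB1.3* and *CAT2* summed to 2612500, 4465100 and 2910200 under LD and 1261300, 1538500 and 1401900 under CLL, and 0 of 5 passed the test. The guard cell markers summed to 4036, 8904 and 6331 under LD and 1535, 1935 and 1828 under CLL, 3.64-fold higher under LD, and 1 of 5 rose. It was *AT1G22690*, a gene of the gibberellin-regulated family that overlaps another gene on the opposite strand, with 3477, 8340 and 5914 under LD and 1252, 1448 and 1308 under CLL, and it remained called without any 1 of the libraries 47, 48, 49, 66 and 67. This gene alone made up most of the guard cell sum in every library. The median log2 fold change of the 5 markers was 0.69, or 0.11 with total-count scaling. The phloem markers summed to 18559, 20180 and 15619 under LD and 10877, 11659 and 10004 under CLL, 1.67-fold higher under LD, and 0 of 7 passed the test. The part of guard cell and phloem content in the rises under LD was not tested. The shoot meristem markers summed to 2072.3, 1741.5 and 1360.5 under LD and 2275.3, 1544.9 and 1644.7 under CLL, with overlapping groups. Of these 11 markers 3 fell, *STM*, *KNAT1* and *CUC2*, and 2 had a positive log2 fold change. The count of falls was 4 without library 66 and 0 without 47, 49 or 67. *STM* had no reads under LD and 266, 2.74 and 113 under CLL. Its pooled reads were at least 99.8-fold lower under LD, a bound that rests on libraries 65 and 67. *KNAT1* had 0, 1.76 and 0 under LD and 60.6, 5.48 and 46.2 under CLL, a ratio of CLL to LD of 82.2 (95% counting interval 14.6 to 3268). Library 66 was close to LD in both and libraries 65 and 67 far above. *CLV3* and *WUS*, the stem cell genes, stayed at or under 5.28 in every library. Of 8 genes of the stomatal lineage *SPCH* and *BASL* fell. *SPCH* had 7.15, 10.6 and 8.23 under LD and 125, 30.1 and 121 under CLL. Some of these calls were lost, with limma adjusted p of STM (0.014 without 47, 0.025 without 48, 0.026 without 49 and 0.053 without 67), KNAT1 (0.012 without 47, 0.021 without 49 and 0.034 without 67), CUC2 (0.033 without 47, 0.011 without 48, 0.050 without 49, 0.011 without 66, 0.042 without 67 and 0.19 by edgeR without 65), SPCH (0.014 without 49 and 0.044 without 67) and BASL (0.020 without 47, 0.042 without 49, 0.012 without 66 and 0.067 without 67).

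Cell division genes were lower under LD by edgeR and mostly short of the limma threshold. Of 25 cyclins, CDKs and mitotic genes, 2 fell with limma and 20 with edgeR (6.42% of all genes), with a median of -1.73, and 4 fell with limma without library 66 (2.17% of all genes in that fit) and 0 without library 67. *CDC20.1*, an activator of the anaphase complex, had 28.6, 17.59 and 15.1 under LD and 373, 75.8 and 205 under CLL and fell by 3.13 ± 0.54 (limma adjusted p = 0.0016). *KNOLLE*, the syntaxin of the cell plate, had 80.1, 38.7 and 69.9 under LD and 335, 131 and 349 under CLL and fell by 2.03 ± 0.43 (limma adjusted p = 0.0064). In both, library 66 lay between LD and the other CLL libraries. Of 22 replication genes and histones 3 fell, *PCNA1*, *RNR1* and the histone gene *H3.1* (AT5G10400), by 1.25, 1.11 and 1.59, and in these library 66 did not stand apart. None of 7 leaf growth regulators passed with limma, and *AN3* had 38.6, 31.7 and 19.2 under LD and 364, 22.8 and 255 under CLL (adjusted p = 0.088 with limma and 6.6e-12 with edgeR). The summed level of the 7 was 360.4, 514 and 417 under LD and 1564, 373 and 1144 under CLL. The part of young tissue in the falls of these and of the ER body and anthocyanin genes was not tested. Lost calls had limma adjusted p of CDC20.1 (0.025 without 67), KNOLLE (0.027 without 48, 0.016 without 49 and 0.072 without 67), PCNA1 (0.017 without 48, 0.012 without 49, 0.027 without 66, 0.048 without 67 and 0.016 by edgeR without 65), RNR1 (0.014 without 48, 0.024 without 49, 0.045 without 66, 0.039 without 67 and 0.036 by edgeR without 65) and H3.1 (0.017 without 66 and 0.034 without 67).

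**Figure D5:**
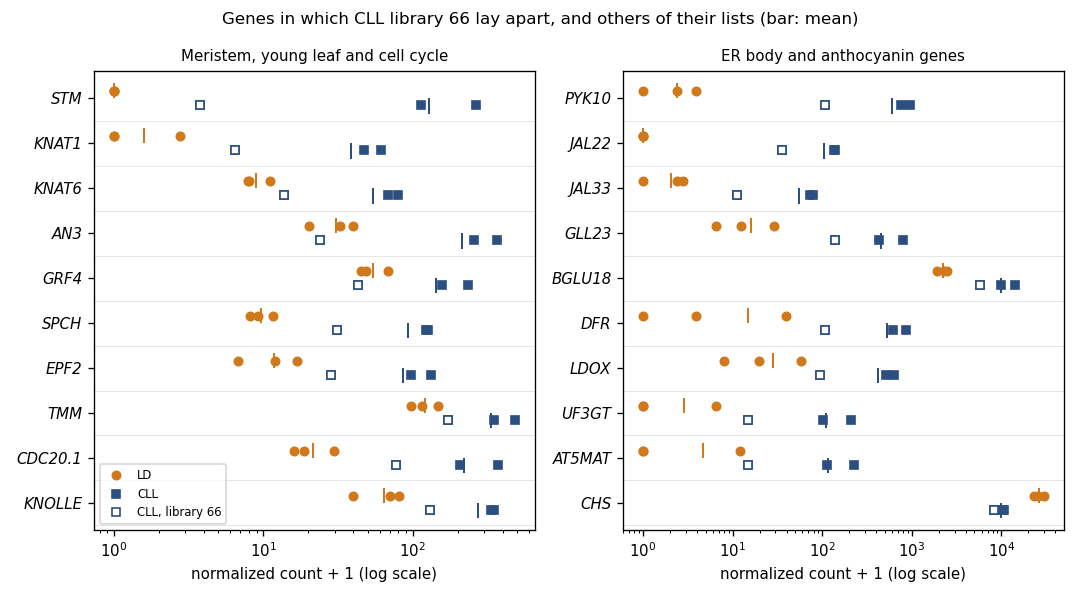
Genes in which CLL library 66 lay apart, and others of their lists. Among the others, *CHS* rose under LD, and library 66 lay close to its other CLL libraries. Each point is 1 library (orange circles LD, filled blue squares CLL libraries 65 and 67, open squares library 66), on a log axis of the normalized count plus 1, and bars give the mean of 3 libraries. Library 66 was the lowest CLL library in every gene shown, near LD in *STM* (2.74), *AN3* (22.8) and *GRF4* (42.0) and well above LD in *PYK10* (106) and *BGLU18* (5719).

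Sugar and starch genes showed a few large changes. *SWEET12*, a sucrose exporter of phloem loading, had 107, 104 and 145 under LD and 1782, 2296 and 1532 under CLL and fell by 3.96 ± 0.25 (limma adjusted p = 1.3e-06). *PWD*, which primes starch for breakdown, had 548, 387 and 384 under LD and 1691, 2032 and 1512 under CLL and fell by 1.996 ± 0.23 (limma adjusted p = 8.2e-05). *BAM9* fell by 1.34, *ISA3* by 1.15 and *GPT2*, the glucose phosphate carrier, by 2.44, while the amylase genes *AMY3* and *BAM5* rose by 1.14 and 1.499. The starch counts were 2 rises and 4 falls of 24. Among the starvation genes *DIN6*, an asparagine synthetase gene raised in the dark, had 199, 149.5 and 114 under LD and 51.9, 25.6 and 53.6 under CLL and rose by 1.83 ± 0.41 (limma adjusted p = 0.0095), and *BCAT-2*, of branched-chain amino acid breakdown, had 8.58, 1.76 and 2.74 under LD and 67.5, 69.4 and 39.7 under CLL and fell by 3.65 ± 0.60 (limma adjusted p = 0.0011). They were the 2 of 14 called, with no overlap. The hexose transporter *MSS1* and the invertase *ATBFRUCT1* fell by 1.61 and 1.55, and with *SWEET12* made up the 3 falls of 7 genes of sugar transport. Calls were lost with limma adjusted p of BAM9 (0.012 without 66), ISA3 (0.010 without 47, 0.014 without 48, 0.013 without 49, 0.058 without 66 and 0.026 without 67), GPT2 (0.015 without 47, 0.028 without 48, 0.044 without 66, 0.021 without 67 and 0.013 by edgeR without 65), AMY3 (0.011 without 47, 0.010 without 48, 0.024 without 66, 0.030 without 67 and 0.016 by edgeR without 65), BAM5 (0.024 without 47, 0.014 without 48, 0.025 without 49, 0.024 without 66, 0.061 without 67 and 0.010 by edgeR without 65), DIN6 (0.033 without 47, 0.028 without 48, 0.014 without 49, 0.052 without 66 and 0.033 without 67), MSS1 (0.028 without 66) and ATBFRUCT1 (0.017 without 66).

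Several genes linked to senescence were lower under LD. Of 17, 5 fell and 1 rose, with a median of -1.12 (-1.62 with total-count scaling). *SAG13*, an early marker, had 31.5, 135 and 181 under LD and 2149.5, 2077 and 1148 under CLL and fell by 4.21 ± 0.49 (limma adjusted p = 8.4e-05). *SWEET15*, the exporter also called *SAG29*, had 78.7, 151 and 314 under LD and 2.31, 18.3 and 10.2 under CLL and rose by 4.13 ± 0.66 (limma adjusted p = 0.00095). Neither gene overlapped between the regimes. *NAC042*, the kinase gene *FRK1* and the chlorophyll b reductase gene *NYC1* fell, by 3.84, 3.54 and 1.02, and *WRKY75*, with 2 reads under LD, had a ratio of CLL to LD of 21.4 (95% counting interval 5.76 to 180). *SAG12*, the marker of late senescence, had reads in library 66 alone, at 12.8, and did not pass the test. Calls that did not hold had limma adjusted p of SWEET15 (0.010 without 49), NAC042 (0.011 without 66 and 0.014 without 67), FRK1 (0.018 without 47, 0.030 without 49, 0.036 without 66 and 0.019 without 67) and NYC1 (0.029 without 48, 0.030 without 49, 0.052 without 66, 0.069 without 67 and 0.026 by edgeR without 65).

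Glutathione transferases and waxes were among the remaining changes. *GSTF6* had 212, 225 and 629 under LD and 4120, 6044 and 3289.5 under CLL and fell by 3.80 ± 0.36 (limma adjusted p = 2.0e-05), and its near-identical neighbour *GSTF7* fell by 3.52. *AOX1D*, an alternative oxidase gene, had 1.43, 0 and 4.11 under LD and 41.0, 37.4 and 30.5 under CLL and fell by 3.999 ± 0.65 (limma adjusted p = 0.0010). They were the 3 of 16 antioxidant genes called. *CER4*, which makes wax alcohols, had 784, 487 and 512 under LD and 68.1, 179 and 143 under CLL and rose by 2.26 ± 0.35 (limma adjusted p = 0.00079). *CER1*, of the alkane branch, had 777, 929 and 761 under LD and 1926, 2464 and 2222 under CLL and fell by 1.42 ± 0.21 (limma adjusted p = 0.00052), and *CYP96A15*, which oxidises alkanes, fell by 3.81. *WSD1*, of wax esters, fell by 1.58, which makes 1 rise and 3 falls of 23 cuticle genes. Its call was lost with adjusted p of WSD1 (0.013 without 47, 0.011 without 48, 0.028 without 66 and 0.061 without 67).

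Genes of mineral nutrition were not called with limma. None of 23 iron genes and none of 21 nitrate, sulphur and phosphate genes passed with limma. edgeR called 6 iron genes higher and 1 lower and 2 of the nutrient genes lower, where 4.62% of all genes were called higher and 6.42% lower. *NIA2*, nitrate reductase, had 35855, 44420 and 35401 under LD and 40297, 48440 and 40450 under CLL, and *OPT3*, a carrier of iron, had 14250, 20954 and 14349 under LD and 12250, 13461 and 8939 under CLL. The groups overlap in *NIA2* and not in *OPT3*, and neither passed the test. Of 10 heat shock genes *HSP90.1* fell by 1.46, and its call was lost with adjusted p of HSP90.1 (0.017 without 47, 0.012 without 49, 0.052 without 66 and 0.046 without 67).

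Several of the largest changes were of genes outside the lists with little annotation. *AT5G54585*, of unknown function, had 2299.7, 4130.3 and 4350.2 under LD and 107, 173 and 169 under CLL and rose by 4.56 ± 0.28 (limma adjusted p = 1.3e-06). *AT3G62070* had 872, 1266 and 1472 under LD and 73.3, 78.5 and 81.3 under CLL and rose by 3.90 ± 0.27 (limma adjusted p = 2.0e-06), and *AT5G62280*, annotated as a DUF1442 gene, had 629, 876 and 554 under LD and 41.0, 44.7 and 65.6 under CLL and rose by 3.74 ± 0.31 (limma adjusted p = 8.4e-06). Each was higher in every LD library by several fold. *AT4G33980* had 1 read under LD and 107, 222 and 116 under CLL, a ratio of 283 (95% counting interval 50.6 to 11200). *AT2G44240*, annotated as a DUF239 gene, had 2 reads under LD and 203, 273 and 103 under CLL, a ratio of 194 (95% counting interval 53.6 to 1608). *AT4G16260*, annotated as a glycosyl hydrolase, had 1.43, 7.04 and 0 under LD and 225, 352 and 188 under CLL and fell by 6.52 ± 0.67 (limma adjusted p = 3.5e-05). CLL libraries of these genes were within a few fold of each other. By contrast *AT1G62500*, a lipid transfer protein gene, had 0, 0 and 1.37 under LD and 3661, 11.9 and 1106 under CLL, the stearoyl desaturase family gene *FTM1* had 2.86, 0 and 0 under LD and 1326, 3.65 and 533 under CLL and the cytochrome P450 gene *CYP77B1* had 0, 0 and 0 under LD and 459, 2.74 and 321 under CLL. Library 66 lay near LD in these 3 genes. It lay between in *AT4G29030*, with 0, 10.6 and 2.74 under LD and 3232, 83.1 and 1404 under CLL, and in *AT2G33850*, with 5.72, 7.04 and 1.37 under LD and 907, 86.7 and 1100.5 under CLL. Leaving out a library ended some calls, with limma adjusted p of AT1G62500 (0.014 without 48 and 0.030 without 67), AT4G29030 (0.011 without 67), FTM1 (0.013 without 47, 0.049 without 48, 0.049 without 49 and 0.091 without 67) and CYP77B1 (0.014 without 47, 0.027 without 48, 0.027 without 49 and 0.058 without 67).

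*RTNLB16*, the reticulon gene that the mutant of the series affects, had 769, 876 and 1016 under LD and 954, 709 and 640.3 under CLL in Col-0, with overlapping groups and a log2 fold change of 0.22 ± 0.23 (limma adjusted p = 0.61, -0.38 with total-count scaling). *MSD1*, its neighbour on chromosome 3, which encodes mitochondrial superoxide dismutase, had 5726, 4885 and 7776 under LD and 5083, 6258 and 5811 under CLL and a log2 fold change of 0.08 ± 0.24 (limma adjusted p = 0.86, -0.52 with total-count scaling). Neither gene differed beyond the spread between replicates. Over all genes, the response to the regime differed between Col-0 and *rtnlb16-1* in 109 (0.395%) at a limma adjusted p under 0.01, by the interaction of genotype and light.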

How the data were processed

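The samples were leaves of Col-0 and *rtnlb16-1* under LD and CLL, 3 libraries a group, grouped by their genotype and treatment labels. The authors mapped the reads to TAIR10, with the Araport11 annotation, by STAR, took gene counts from HTSeq and scaled them by the size factors of DESeq2. The deposited values are therefore normalized counts, a signal per gene relative to each library's size factor, for 37336 genes, of which 37051 IDs matched the TAIR10.1 RefSeq annotation. The strand setting is not given in the sources used here. All 283390 values above 0 (100.0%) came out as whole reads, within a relative tolerance of 1e-06, and those reads gave the depth per library and the counts for edgeR and DESeq2. Each library pools several plants, and p-values measure the spread between these pools.

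The main test was limma (lmFit, eBayes with trend, version 3.58.1) on log2(normalized count + 1) over the 6 Col-0 libraries and the 27575 genes above 0 in at least 1 of them, two-sided, with Benjamini-Hochberg adjustment over all of them. A change needed an absolute log2 fold change above 1 and an adjusted p under 0.01, and members of lists were counted at the adjusted p alone. Other settings tried were TMM or upper-quartile scaling, a pseudocount of 0.5 or 5, genes with a value of 10 or more in 3 or more libraries only, a robust prior, the fit of all 12 libraries or 4 groups, edgeR 4.0.16 (quasi-likelihood), DESeq2 1.42.0 and leaving out each library. With edgeR the adjusted p is also by Benjamini-Hochberg. Fold intervals of genes with 1 to 3 reads in a group are exact 95% intervals of the ratio of reads, and genes with none were set against 3 reads over the group. Both pool the reads of each group and cover counting error only, not the spread between libraries. Scripts ran in Python 3.11.15 with pandas 2.3.3 and numpy 2.4.6 and in R 4.3.3.

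Genes and the 42 gene lists (773 entries, of which 19 symbols are not in the annotation) and 10 marker lists were chosen with earlier results of these data known. The genes named are the 12 largest rises and 12 largest falls without overlap at a mean of at least 50, and for each list up to 5 members called, at a mean of at least 50, by size of change, or by mean where fewer than 3 passed, plus a few genes always given. This rule names 204 genes, of which 49 overlap another annotated gene, 45 on the opposite strand. Other members were named after their values were seen. Promoters are the 250 bases before the annotated start. The handling order and the regime cannot be told apart, since library numbers of the regimes do not overlap.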

Additional observations from a re-analysis of the deposited data

Results flagged for a closer look

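The log2 fold change of LD against CLL was tested for a difference between *rtnlb16-1* and Col-0 by the interaction of genotype and light in limma. The difference is given as *rtnlb16-1* minus Col-0, and 109 of all genes (0.395%) and 19 of the named genes passed an adjusted p under 0.01. Many named genes were picked by the size of their change in Col-0, which is a term of this difference. That choice favours a smaller response in *rtnlb16-1*, so their count cannot be set against the share of all genes. The *rtnlb16-1* CLL libraries 68 and 69 were averaged into 1 sample for this test, since the SD of their log2 ratio was 0.135, against 0.372 or more for every other pair of a group.

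Among the genes that rose in Col-0, those of auxin, shade and growth that passed this test had smaller or negative log2 fold changes in *rtnlb16-1*, with the values below. Of the auxin list, 4 of 26 members passed with a lower response in *rtnlb16-1*, of the PIF and shade list 2 of 19, and of the expansins and XTHs 2 of 15, with 1 more, *XTH24*, that passed in the other direction and had not risen in Col-0. *IAA29* had a log2 fold change of 3.49 in Col-0 and -3.75 in *rtnlb16-1*, a difference of -7.24 ± 0.87 (limma adjusted p = 0.00097). The ACC synthase gene *ACS4* had 3.12 in Col-0 and -4.64 in *rtnlb16-1*, a difference of -7.76 ± 0.78 (limma adjusted p = 0.00027). The expansin gene *EXPA8* had 3.57 in Col-0 and -0.49 in *rtnlb16-1*, a difference of -4.06 ± 0.40 (limma adjusted p = 0.00027). The values were 3.43 and -1.27 for *EXPA11* (difference -4.70), 2.90 and 0.40 for *IAA14* (difference -2.50), 1.88 and -1.29 for *HAT2* (difference -3.17), 3.96 and 1.13 for *XTH31* (difference -2.82), 2.26 and -1.69 for *GASA6* (difference -3.94) and 2.68 and -1.53 for *BAS1* (difference -4.22). Among genes of little annotation they were 3.74 and -1.71 for *AT5G62280* (difference -5.45), 3.90 and 0.25 for *AT3G62070* (difference -3.66) and, for the SAUR-like gene, 3.85 and 0.51 for *AT5G18030* (difference -3.34). The sulphate reduction gene *APR1* was not called in Col-0. It had 0.49 in Col-0 and -1.66 in *rtnlb16-1*, a difference of -2.15 ± 0.28 (limma adjusted p = 0.0021).

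Genes that fell in Col-0 and not, or less, in *rtnlb16-1* included both clock genes and ER body genes. *PRR5* had -3.96 in Col-0 and 0.01 in *rtnlb16-1*, a difference of 3.98 ± 0.48 (limma adjusted p = 0.0011). *FKF1* had -4.96 in Col-0 and -1.06 in *rtnlb16-1*, a difference of 3.90 ± 0.63 (limma adjusted p = 0.0075). *PYK10* had -7.67 in Col-0 and 0.98 in *rtnlb16-1*, a difference of 8.64 ± 1.00 (limma adjusted p = 0.00077), and the lectin gene *JAL22* had -6.46 in Col-0 and 1.2002 in *rtnlb16-1*, a difference of 7.66 ± 0.71 (limma adjusted p = 0.00021), both with a base of 3 reads or fewer in the Col-0 LD group. The wax gene *CER1* had -1.42 in Col-0 and 0.64 in *rtnlb16-1*, a difference of 2.06 ± 0.33 (limma adjusted p = 0.0075). The kinase gene *WAK3* fell in both genotypes and further in *rtnlb16-1*, with -3.74 in Col-0 and -8.30 in *rtnlb16-1*, a difference of -4.56 ± 0.54 (limma adjusted p = 0.0009). By list, 3 of 22 ER body and glucosinolate breakdown genes and 2 of 12 evening clock genes passed with a positive difference. A negative difference passed in 3 of 10 salicylic acid outputs, 1 of 19 of its regulators and 1 of 20 cell surface kinases. The median log2 fold change of the outputs was -2.11 in Col-0 and -3.635 in *rtnlb16-1*.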

How the results depend on the processing

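No paired analysis was possible because the replicate numbers of the LD and CLL libraries are not shared. Of the 1529 genes called, 573 were higher and 956 lower. edgeR called 2657 (986 higher and 1671 lower) and DESeq2 2311 (998 and 1313). An adjusted p under 0.05 gave 2788 (977 and 1811), and an unadjusted p under 0.01 gave 3087 (1043 and 2044). Another pseudocount, a filter on low counts, TMM or upper-quartile scaling, a fit of all 12 libraries or of 4 groups, a robust prior and no minimum fold gave 1136 to 1922. With 1 library left out in turn, limma called 0 to 1497 genes (0 to 730 higher and 0 to 767 lower), with 1073 without library 48, 1105 without 49, 820 without 66, 573 without 67 and 0 without 65.

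The following were chosen after seeing the data. Total-count scaling gave 3384 (224 higher and 3160 lower, so that 6.62% were higher against 37.5%). A prior without trend over genes with a mean of at least 10 gave 997 (344 and 653). Leaving out each library in the fit of 4 groups gave 686 to 1340 (222 to 551 higher and 464 to 858 lower), with 340, 355, 335 and 262 higher without 48, 49, 66 and 67, and 786 in all and 524 lower without 67. The same in edgeR gave 1210 to 2841 (420 to 1256 higher and 790 to 1592 lower), with 2450 without 48, 2434 (877 higher and 1557 lower) without 49 and 1585 lower without 47.

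Of the members of the gene lists 206 were called, against 347 with edgeR and 323 with DESeq2, 0 to 182 with 1 library left out, 91 to 164 in the fit of 4 groups (113 without 67) and 197 to 343 in edgeR (326 without 49). Of the 204 genes named by rule 154 were called, and 0 to 135, 79 to 124 (96 without 67) and 137 to 167 in the same 3 sets of fits. Of these 154, edgeR called 136 without library 65, and 83 remained called by limma without each of the libraries 47, 48, 49, 66 and 67. Of the 83, 67 also remained in the fit of 4 groups without library 65. No named gene that was called changed its sign under any of the alternatives run. The cause of these differences was not tested. With 3 libraries a regime an exact permutation test could not go below 0.1. Genes with few reads, such as *CO* and *FLC*, can show large differences only.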

Other observations

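Gene families were counted from the annotation after their values had been seen, so the counts are descriptions. Over all genes, limma called 2.18% higher and 3.5% lower. Of 65 WRKY genes tested, 16 fell and none rose, with a median log2 fold change of -1.13. Of 35 cysteine-rich receptor-like kinase genes, 15 fell and 1, *CRK21*, rose. Of 85 TIR-NBS-LRR resistance genes, 9 fell and 1 rose, with a median of -0.73. Of 55 peroxidase genes, 8 fell and 2 rose.

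The 72 SAUR-like genes went the other way, with 22 rises, 3 falls and a median of 0.63. Of 22 B-box genes, 5 rose and 4 fell, *BBX30* having the largest rise and *BZS1* the largest fall. Of 189 cytochrome P450 genes, 16 fell and 6 rose, *CYP71A13* having the largest fall. Of 330 ribosomal protein genes, 2 rose and none fell, with a median of 0.10. Of these, edgeR called 17 higher and 1 lower, where it called 4.62% of all genes higher and 6.42% lower. The rises by edgeR are thus near the share over all genes. The E2F site TTTCCCGC was present on either strand in 4 of 22 promoters of replication genes and histones, and in 0.631% of all promoters. The core of the mitosis-specific activator site, CCAACGG, was present in 6 of 25 promoters of cyclins, CDKs and mitotic genes (24%) and in 1.61% of all. Both are descriptions of the letters only.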
